A study of Danio rerio with 340 samples.

Results

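Hydroxyurea at 33 mM was compared with 0 mM in zebrafish larvae of the PET strain. The larvae were chosen by their sample labels, as all those of strain PET in the experiment with hydroxyurea that carried 1 of these 2 doses, and 5 larvae at 33 mM and 7 larvae at 0 mM were found, 12 of the 340 larvae in the data. PET is a wild-type stock bought from a pet shop and, unlike AB, TU and RW, it was not bred under laboratory control. Embryos of both groups were kept singly in wells from 5 to 6 h post-fertilization and collected as whole larvae at 5 days post-fertilization (dpf), with no change of medium. The compound was dissolved in DMSO or water, and which of these was used for hydroxyurea is not given in the sources used here. The RNA of each larva was sequenced by Lasy-Seq, a method that reads the 3′ end of transcripts and gives each larva its own index. The same experiment held PET larvae at 1.3 mM (7 larvae) and 6.6 mM (7 larvae) and 3 laboratory strains, AB, TU and RW, with 104 larvae in all.

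The labels do not say which larvae came from 1 pair of parents, and the study lists a single biological replicate for each exposure. The p-values below therefore measure the spread between single larvae, and strain and clutch cannot be told apart. The study states that embryos were assigned to groups at random. Whether the doses shared a clutch or plate is not given, so that dose and clutch or plate cannot be told apart either. Levels are given as CPM, the usual depth-normalized counts, with library sizes scaled by the TMM factors of edgeR, and differences as log2 fold changes of 33 mM minus 0 mM with their standard error. A gene was called changed when the Benjamini-Hochberg adjusted p of edgeR's quasi-likelihood test was under 0.05. The data are whole larvae, so that fewer cells of a type and less RNA per cell cannot be told apart in any level below.

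Hydroxyurea blocks ribonucleotide reductase, the enzyme that makes deoxyribonucleotides from ribonucleotides. Without deoxyribonucleotides replication forks slow down, the checkpoint kinases atr and chek1 are switched on, and cells can halt their cycle or die. In the days before 5 dpf the zebrafish larva builds its retina, lens, gut, liver and exocrine pancreas from dividing progenitors, and these organs start their specialised functions towards the end of that time.

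The total count per larva was 3112775, 1996908, 1912344, 1302754 and 2285468 at 33 mM and ran from 2337627 to 4474913 (median 3507564) at 0 mM. The log10 totals were lower at 33 mM (exact two-sided permutation test, p = 0.0177, where 0.00253 is the smallest p that 5 against 7 larvae can give). After thinning to 1302754 counts the larvae held 17848 ± 741 genes with a count at 33 mM (SD, n = 5) and 17944 ± 360 at 0 mM (SD, n = 7), a difference within the spread between larvae (exact permutation test, p = 0.775). The 50 genes with the highest counts took 33.5% ± 1.1 of the counts at 33 mM (SD, n = 5) and 31.5% ± 0.78 at 0 mM (SD, n = 7), a higher share at 33 mM (exact permutation test, p = 0.00758). At 33 mM larva 5 had the lowest summed levels of photoreceptor, lens, neuron and erythroid genes, and larvae 3 and 4 had the highest levels of exocrine pancreas genes.

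Of 17236 genes tested, 1623 changed at 33 mM (9.42%), 631 of them higher (3.66%) and 992 lower (5.76%). The counts of gene list members given below stand beside these shares, and the lists were chosen with earlier results of these data known. The median change of the genes that rose was 1.19 and that of the genes that fell was −1.27 on the log2 scale, beside a median of 0.01 over all genes tested. At least a log2 change of 2 was reached by 88 genes that rose and 235 that fell, and a change of 4 by 12 and 53. The genes that fell took 15.7% of all counts in the larvae at 0 mM and 7.75% at 33 mM. The CPM ranges of the 5 and 7 larvae did not overlap for 874 of the changed genes (5.07% of all genes tested). Without larva 5 at 33 mM the number of changed genes was 1191, and without any 1 of the other 11 larvae it lay between 1318 and 1646. With each of the 12 larvae thinned to the same total and fitted alone, 1432 of 10360 genes tested changed. The same 12 larvae fitted alone without thinning gave 1798 of 13175.

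**Figure D1:**
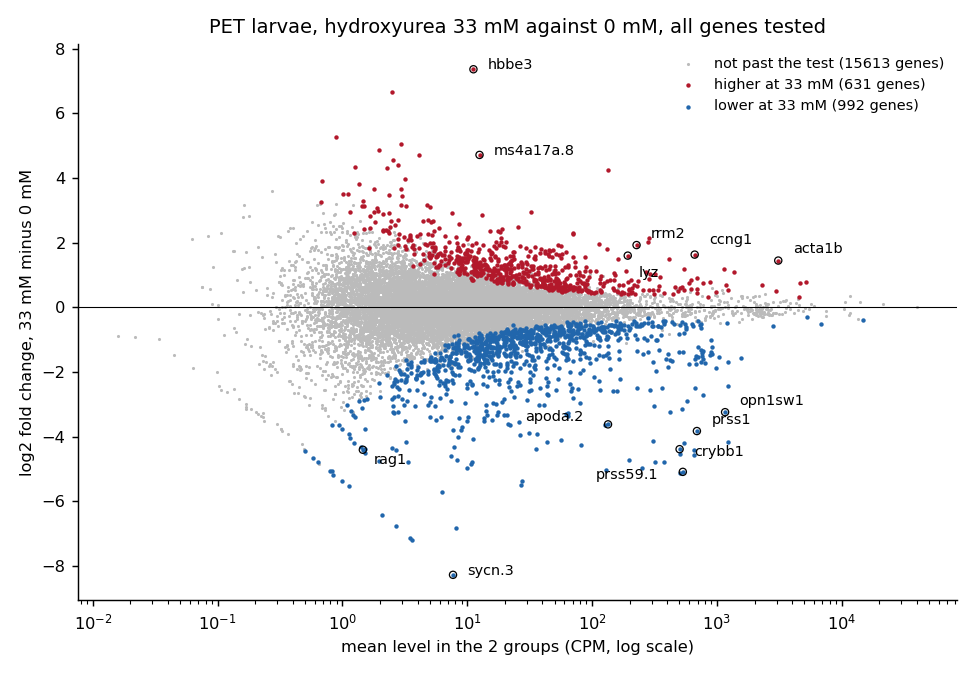
Each point is 1 gene, with the mean level of the 2 groups in CPM on a log axis and the log2 fold change of PET larvae at 33 mM minus 0 mM (5 and 7 larvae). Red points are the 631 genes that were higher, blue points the 992 genes that were lower and grey points the genes that did not pass the test, and 13 genes described in the text are ringed.

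**Figure D2:**
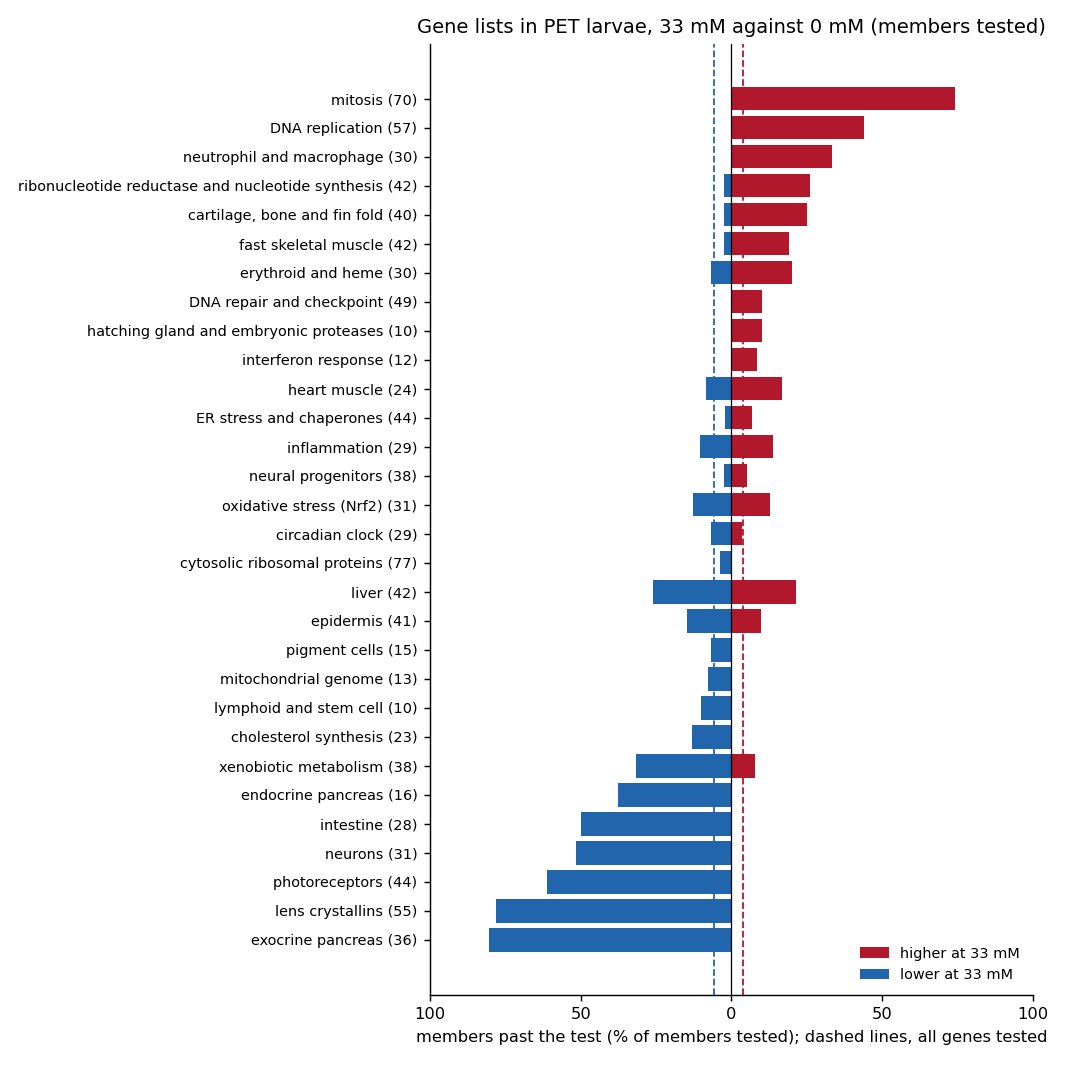
Bars give the share of the tested members of each gene list that were higher (red, to the right) or lower (blue, to the left) at 33 mM, in percent, with the number of members tested in brackets and dashed lines at the shares over all genes, 3.66% and 5.76%. Mitosis and DNA replication genes had the largest shares of members that rose, and exocrine pancreas, lens and photoreceptor genes the largest shares that fell. The lists were chosen with earlier results of these data known.

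The subunits of ribonucleotide reductase, the target of hydroxyurea, were described first. The level of rrm2, the small subunit made in dividing cells, was 413, 430.3, 321, 313 and 318 CPM in the 5 larvae at 33 mM and 85.2 to 111 CPM (median 91.5) in the 7 at 0 mM. Every larva at 33 mM was above every larva at 0 mM, and the log2 fold change was 1.93 ± 0.15 (adjusted p = 2.91e-19). For rrm1, the large subunit, the levels were 84.3, 71.8, 47.6, 38.8 and 81.7 CPM at 33 mM against 10.9 to 34.4 CPM (median 27.6). The groups did not overlap here either, with a log2 fold change of 1.28 ± 0.29 (adjusted p = 0.00062). The other small subunit, rrm2b, which in mammals is also made outside of dividing cells, had 19.1, 10.6, 7.48, 6.46 and 21.9 CPM at 33 mM and 5.70 to 25.2 CPM (median 16.6) at 0 mM, and its log2 fold change of −0.27 ± 0.53 did not pass the test (adjusted p = 0.859).

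Among 42 tested genes of ribonucleotide reductase and nucleotide synthesis 11 rose and 1 fell, beside 3.66% higher and 5.76% lower over all genes. The median log2 fold change of the list was 0.25. Without larva 2 at 33 mM the number that rose was 6, and 2 fell without untreated larva 4 or 7 or treated larva 3 or 4. The genes that rose included dck, the deoxycytidine kinase of the salvage pathway, with 36.4, 22.2, 11.2, 33.0 and 16.1 CPM at 33 mM against 3.34 to 11.9 CPM (median 6.93) at 0 mM. Larva 3 alone lay within the range of the untreated larvae, and the log2 fold change was 1.72 ± 0.32 (adjusted p = 2.61e-05). The thymidylate synthase tyms, chosen after its values were seen, rose by a log2 fold change of 1.35 ± 0.25 (adjusted p = 1.75e-05).

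Cyclin G1 is known to be induced after DNA damage. Its gene, ccng1, had the lowest p of all genes that rose. The ccng1 level was 993, 1092, 911, 691 and 1322 CPM at 33 mM and 292 to 345 CPM (median 329) at 0 mM, a log2 fold change of 1.63 ± 0.13 (adjusted p = 8.05e-20). The ribosomal protein S27-like gene rps27l had 444, 555, 425, 419 and 407 CPM at 33 mM and 83.9 to 147 CPM (median 95.0) at 0 mM, and rose by a log2 fold change of 2.03 ± 0.17 (adjusted p = 5.29e-18). For both genes the 5 treated larvae lay far above the 7 untreated ones. Chosen after their values were seen, mdm2, a ubiquitin ligase gene, rose by 1.59 ± 0.26 and phlda3, an inhibitor of Akt in mammals, by 1.76 ± 0.41 on the log2 scale.

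Among the lists, mitosis had the most members that rose. Of 70 tested genes of mitosis 52 rose and 0 fell, with a median log2 fold change of 1.34, and for 37 of the 70 the treated larvae all lay above the untreated ones (1.97% of all genes). Their summed level was 2354, 2496, 2269, 1893 and 2078 CPM at 33 mM against 889.7 to 968 CPM (median 929) at 0 mM. Even the lowest treated larva, larva 4, was above the highest untreated one. The condensin subunit gene smc4 had 27.9, 30.6, 19.2, 25.8 and 23.0 CPM at 33 mM and 2.47 to 7.88 CPM (median 4.93) at 0 mM, a log2 fold change of 2.35 ± 0.37 (adjusted p = 3.18e-07). For cdk1, the kinase that drives entry into mitosis and a gene chosen after its values were seen, the levels were 85, 86.6, 95.1, 87.6 and 81.7 CPM against 21.5 to 35.4 CPM (median 29.0). The 5 treated larvae lay close together for this gene, and its log2 fold change was 1.65 ± 0.19 (adjusted p = 7.52e-12). The gene of the centriole duplication kinase plk4 rose by 2.22 ± 0.49, with treated larvae from 2.11 to 16.5 CPM, and the groups overlapped.

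Of 57 tested genes of DNA replication 25 rose and 0 fell, with a median of 0.83. The sliding clamp gene pcna had 379.7, 414, 388, 301 and 355 CPM at 33 mM and 138 to 235 CPM (median 146) at 0 mM, and its log2 fold change was 1.11 ± 0.16 (adjusted p = 8.18e-08). The DNA polymerase alpha subunit gene pola2 rose by 1.94 ± 0.36 and cdc45, a part of the replicative helicase chosen after its values were seen, by 1.77 ± 0.43. Both groups of larvae were apart for all 3 genes. Of 49 genes of DNA repair and the checkpoint 5 rose and 0 fell, beside 3.66% higher and 5.76% lower over all genes. Their median was 0.62. The number that rose was 2 without untreated larva 1, 3 or 5 or treated larva 2. It was 3 without untreated larva 6 or 7 or treated larva 1, 3 or 5, and 4 or 5 without the others.

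Some genes outside the lists rose as well. The gene e2f8, a repressor of the E2F family, had 26, 38.0, 30.5, 27.3 and 26.5 CPM at 33 mM against 3.59 to 9.97 CPM (median 5.2) at 0 mM, a log2 fold change of 2.36 ± 0.34 (adjusted p = 4.63e-08). The cohesin acetyltransferase gene esco2 rose by 2.01 ± 0.27, the centromere gene mis18a by 2.17 ± 0.44 and the kinetochore gene nsl1 by 2.12 ± 0.39. The groups did not overlap either for bmb, needed in the zebrafish embryo to join the chromosomes in 1 nucleus after division, whose log2 fold change was 3.1 ± 0.64 at levels of 6.90, 5.28, 11.8, 7.18 and 14.2 CPM against 0.243 to 1.90 CPM (median 0.910).

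Exocrine pancreas genes fell most. Of 36 tested members 29 fell and 0 rose, and the median log2 fold change was −4.12. For 29 of the 36 the treated larvae all lay below the untreated ones, against 4.04% of all genes. The list holds near-identical copies of trypsin, chymotrypsin and elastase genes, whose reads may be shared. The summed level was 399, 431, 1018, 1606 and 351 CPM in the 5 larvae at 33 mM and 10097 to 16466 CPM (median 12990.2) at 0 mM. Larvae 3 and 4 kept more than the other 3, and all 5 were far below the untreated range. The trypsin gene prss1 had 35.4, 48.6, 129, 215 and 37.2 CPM at 33 mM and 1031 to 1468 CPM (median 1264) at 0 mM, a log2 fold change of −3.82 ± 0.32 (adjusted p = 1.6e-18). The trypsin gene prss59.1 had 20.7, 23.8, 34.2, 45.9 and 30.3 CPM against 756 to 1211 CPM (median 1079) with a log2 fold change of −5.08 ± 0.44 (adjusted p = 7.66e-18).

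Other digestive enzymes followed. The log2 fold change was −4.57 ± 0.37 for the chymotrypsinogen gene ctrb1, −4.78 ± 0.40 for ela2, −5.13 ± 0.47 for ela2l, −4.78 ± 0.39 for ela3l (3 elastase genes) and −4.96 ± 0.71 for the carboxypeptidase gene cpa1. Of the elastase gene cela1.2 no count was found in the 5 larvae at 33 mM and 154 counts in the 7 at 0 mM. Against a floor of 3 counts over the group this is at least 23.4-fold lower. The zymogen granule gene sycn.3 had 0 and 342 counts, at least 51.9-fold lower by the same floor. The astacin protease gene c6ast4, in no list, had a log2 fold change of −4.97 ± 0.46 (adjusted p = 5.61e-16), with larvae at 9.41, 16.4, 16.0, 25.1 and 13 CPM against 370.1 to 667 CPM (median 437).

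In the endocrine pancreas list 6 of 16 tested genes fell and 0 rose, beside 5.76% lower and 3.66% higher over all genes. The median of the list was −0.61. Without larva 5 at 33 mM 2 genes fell. The prohormone-processing enzyme gene cpe, which neurons also express, had 148, 150.5, 142, 142 and 95.2 CPM at 33 mM and 209.8 to 260.4 CPM (median 241) at 0 mM, a log2 fold change of −0.82 ± 0.12 (adjusted p = 1.02e-07). The insulin gene ins, chosen after its values were seen, had 58.6, 76.0, 92.4, 28.0 and 46.4 CPM against 33.2 to 59 CPM (median 48.3). The groups overlapped, and the log2 fold change of 0.39 ± 0.25 did not pass the test (adjusted p = 0.426).

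Intestine genes fell as well, 14 of 28 tested, with 0 higher and a median of −1.28. The sphingomyelinase gene enpp7.1 had 0.941, 0, 0, 1.44 and 1.15 CPM at 33 mM and 12.9 to 29.4 CPM (median 20.4) at 0 mM, a log2 fold change of −4.77 ± 0.70 (adjusted p = 4.72e-08). The brush border protease gene mep1a.1 had a log2 fold change of −3.50 ± 0.61. The fatty acid binding protein gene fabp2, a marker of enterocytes chosen after its values were seen, had 148, 163, 260.2, 335 and 105 CPM against 909.8 to 1524 CPM (median 1115) and a log2 fold change of −2.5 ± 0.26. Larva 4 kept the highest level and larva 5 the lowest, and all 5 were below the untreated larvae.

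The liver list was split, with 9 of 42 tested genes higher and 11 lower, beside 3.66% and 5.76% over all genes. The median of the list was −0.10. Without larva 2 at 33 mM 4 rose. The tryptophan dioxygenase gene tdo2a had 10.7, 6.34, 6.95, 15.8 and 4.22 CPM at 33 mM against 29.8 to 69.3 CPM (median 38.2) at 0 mM, a log2 fold change of −2.30 ± 0.33 (adjusted p = 3.06e-08). Chosen after their values were seen, the hormone carrier gene ttr had a log2 fold change of −1.99 ± 0.35 and the liver fatty acid binding protein gene fabp10a one of −1.43 ± 0.26. In contrast, the complement gene c3a.1, also chosen so, rose by 1.48 ± 0.25 with larvae at 219, 352, 154, 99.8 and 361 CPM against 52.4 to 152 CPM (median 80.0), and 1 untreated larva reached the treated range. Of 38 genes of xenobiotic metabolism 12 fell and 3 rose, with a median of −0.47, with 7 lower without larva 5 and 1 higher without larva 2 at 33 mM. The cytochrome P450 genes cyp3c3 and cyp2ad2 had log2 fold changes of −3.41 ± 0.50 and −2.96 ± 0.45, and cyp3a65, chosen after its values were seen, one of −2.59 ± 0.41.

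Photoreceptor genes fell in 27 of 44 tested members, with 0 higher and a median of −1.66. Their summed level was 2559, 1898, 3927, 4355 and 645 CPM at 33 mM and 11836 to 12918 CPM (median 12026) at 0 mM. Larva 5 had the lowest and larva 4 the highest level of the treated group, and every treated larva was below every untreated one. The ultraviolet cone opsin gene opn1sw1 had 230.5, 145, 400.2, 292 and 47.6 CPM against 1698 to 2459 CPM (median 2152), a log2 fold change of −3.24 ± 0.27 (adjusted p = 1.41e-18). The log2 fold change was −3.15 ± 0.29 for the blue cone opsin gene opn1sw2, −1.68 ± 0.22 for the red cone opsin gene opn1lw2 and −2.56 ± 0.28 for the rod opsin gene rho, chosen after its values were seen. The cone transducin subunit gene gnb3b had the lowest p of all genes that fell, with 60.8, 62.8, 99.4, 108 and 15.3 CPM against 321 to 432 CPM (median 395) and a log2 fold change of −2.5 ± 0.20 (adjusted p = 3.28e-19).

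The lens list holds the genes of crystallins, the main proteins of the lens, and a few other lens genes. Of its 55 tested members 43 fell with 0 higher, and the median was −1.59. The summed level was 6165, 9646, 14742, 12788 and 3855 CPM at 33 mM and 27651 to 34977 CPM (median 29347) at 0 mM. Crystallin genes are alike in sequence, so that reads may be shared between them. The beta crystallin gene crybb1 had 24.1, 41.7, 44.4, 48.8 and 71.0 CPM against 846 to 1099 CPM (median 969), a log2 fold change of −4.38 ± 0.50 (adjusted p = 8.69e-12). Larva 5 had the highest level of crybb1 in the treated group but the lowest sum of the list. The log2 fold change was −4.2 ± 0.46 for crybb1l1 and −1.54 ± 0.18 for crygn2, a gamma N crystallin.

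**Figure D3:**
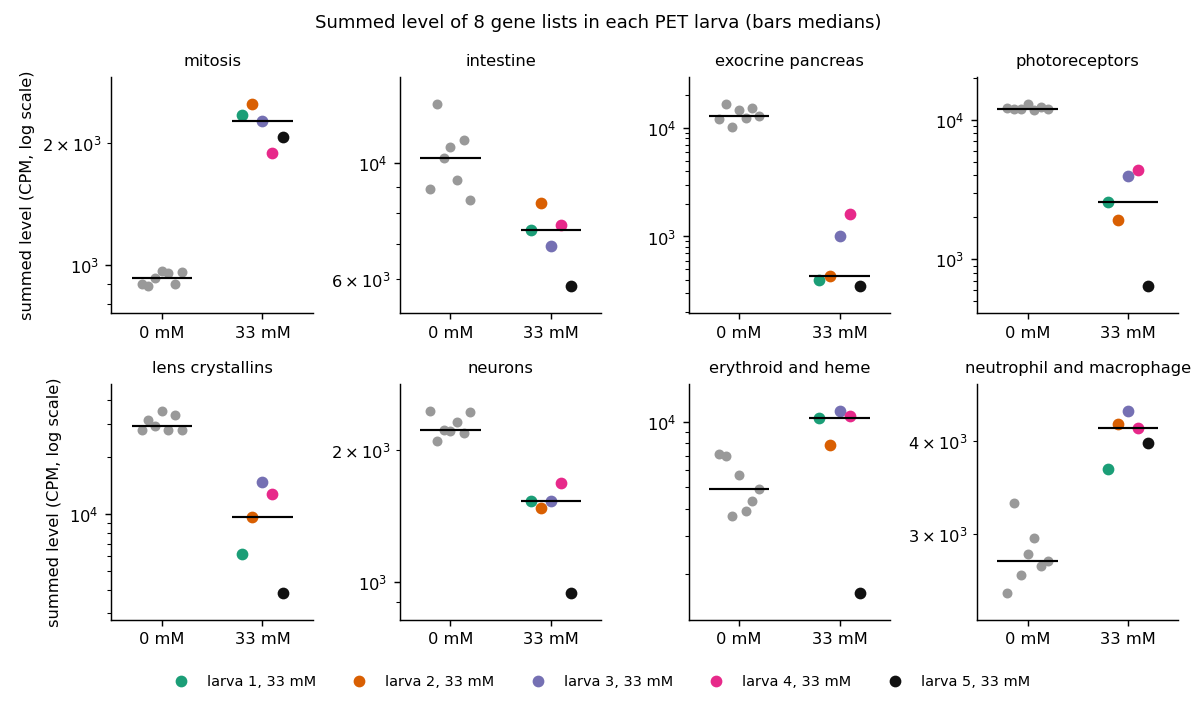
Points give the summed CPM (log axis) of the members of 8 gene lists in each PET larva, grey for the 7 larvae at 0 mM and coloured by larva for the 5 at 33 mM, with bars at the medians. Mitosis sums of the treated larvae lay above all untreated larvae, intestine, exocrine pancreas, photoreceptor, lens and neuron sums lay below, and larva 5 was the lowest of the treated larvae in intestine, exocrine pancreas, photoreceptors, lens, neurons and erythroid genes.

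Of 31 tested neuron genes 16 fell and 0 rose, with a median of −0.65, and 10 fell without larva 5 at 33 mM. The vesicular transporter gene slc32a1 of inhibitory neurons had 14.7, 10.6, 19.2, 20.8 and 4.99 CPM at 33 mM and 22.8 to 52.7 CPM (median 30.3) at 0 mM, a log2 fold change of −1.19 ± 0.29 (adjusted p = 0.0017). Chosen after their values were seen, the synaptic gene snap25a had a log2 fold change of −1.0 ± 0.14 and the GABA synthesis gene gad1b one of −1.03 ± 0.14. Among 38 genes of neural progenitors 2 rose and 1 fell (2 without untreated larva 1 or 5), with a median of 0.22. The other 35 did not pass the test, and over all genes 3.66% rose and 5.76% fell, so that the counts called did not set the list apart. Of the 38, 30 had a log2 fold change above 0 and 8 below. Their summed level was 1624 to 2257 CPM at 33 mM and 1406 to 1711 CPM at 0 mM, and the groups overlapped. The Notch target gene her15.2 had 32.0, 35.9, 41.1, 24.4 and 28.8 CPM against 10.0 to 19.9 CPM (median 10.7) and rose by 1.42 ± 0.25 (adjusted p = 7.52e-06). The growth factor gene mdka, chosen after its values were seen, rose by 0.54 ± 0.11. The retinal homeobox gene rx1 fell by 1.44 ± 0.33.

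Of 30 tested erythroid genes 6 rose and 2 fell, with a median of 0.19. Over all genes 3.66% rose and 5.76% fell, so that the 2 that fell did not set the list apart. Of the erythroid genes 0 fell without larva 5 at 33 mM. The number was 1 without any of the other 4 treated larvae or untreated larva 1, 3, 4 or 7, and 2 without untreated larva 2, 5 or 6. Globin genes are alike in sequence, and reads may be shared between them. The summed level was 10437, 7853, 11170.4, 10649 and 1652 CPM at 33 mM and 3717 to 7113 CPM (median 4898) at 0 mM, so that larvae 1 to 4 were above all untreated larvae and larva 5 was below all of them. The embryonic globin gene hbbe3 had 275 counts in the 5 larvae at 33 mM and 2 in the 7 at 0 mM, a ratio of pooled shares of 302 (exact 95% interval 82.8 to 2507, counting error only). Its levels were 42.3, 42.8, 7.48, 3.59 and 15.3 CPM. The globin gene hbae5, chosen after its values were seen, rose by 2.02 ± 0.41, and the groups overlapped.

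Of 30 genes of neutrophils and macrophages 10 rose and 0 fell, with a median of 0.80, and the number was 5 without untreated larva 1 or 3, 6 without untreated larva 6 or 7 or treated larva 1 or 2, and 7 to 10 without the others. The lysozyme gene lyz had 275, 214, 403, 362 and 195 CPM at 33 mM and 45.5 to 151 CPM (median 103) at 0 mM, a log2 fold change of 1.6 ± 0.26 (adjusted p = 9.3e-07). All 5 treated larvae were above all untreated ones. In the lymphoid list 1 of 10 tested genes fell, rag1, needed to rearrange antigen receptor genes, with 1 count at 33 mM and 64 at 0 mM, a ratio of 29.1 (exact 95% interval 5.04 to 1168, counting error only). Of 29 inflammation genes 4 rose and 3 fell, with 0 higher without larva 5 at 33 mM and 1 lower without untreated larva 4 or 5 or treated larva 1 or 2. Over all genes 3.66% rose and 5.76% fell. The protease gene mmp9, chosen after its values were seen, had 11.6, 13.2, 7.48, 9.33 and 31.1 CPM against 0.896 to 8.25 CPM (median 4.75) and passed the test (log2 fold change 1.67 ± 0.51, adjusted p = 0.0194) only with larva 5 included (1.21, adjusted p = 0.209 without it).

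Fast skeletal muscle genes were higher in 8 of 42 members and lower in 1, with a median of 0.20, and 5 were higher without untreated larva 1, 3 or 7 and 0 lower without treated larva 5. The skeletal actin gene acta1b had 3724, 4496, 4697, 5203 and 4538 CPM at 33 mM and 1312 to 2564 CPM (median 1516) at 0 mM, a log2 fold change of 1.45 ± 0.17 (adjusted p = 1.64e-11). The troponin gene tnnt3a rose by 0.93 ± 0.18. Of 24 heart muscle genes 4 rose and 2 fell, and 2 rose without untreated larva 1, 3 or 7 or treated larva 2 and 1 fell without treated larva 5. The mitochondrial creatine kinase gene ckmt2a fell by 2.29 ± 0.25 and the troponin gene tnnt2c rose by 1.38 ± 0.26. Of 40 genes of cartilage, bone and the fin fold 10 rose and 1 fell, and 6 rose without untreated larva 2 or 6 or treated larva 1 and 2 fell without untreated larva 3 or 5 or treated larva 3 or 4. The cartilage matrix genes matn1 and col9a1a rose by 1.04 ± 0.17 and 1.01 ± 0.18. Of 41 epidermis genes 4 rose and 6 fell, with 2 higher without treated larva 2 and 3 lower without treated larva 5. The keratin gene krt97 fell by 1.0 ± 0.23. The shares of these lists stand beside 3.66% higher and 5.76% lower over all genes.

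Among the stress lists, 4 of 31 tested genes of the oxidative stress response rose and 4 fell. The heme oxygenase gene hmox1a had 35.7, 33.8, 29.9, 22.3 and 39.5 CPM at 33 mM and 6.17 to 23.7 CPM (median 11.6) at 0 mM, a log2 fold change of 1.31 ± 0.32 (adjusted p = 0.00247), with the lowest treated larva inside the untreated range. The thioredoxin gene txn, chosen after its values were seen, rose by 1.05 ± 0.17, and the transketolase gene tkta fell by 1.59 ± 0.24. Of 44 genes of endoplasmic reticulum stress and chaperones 3 rose and 1 fell (0 without untreated larva 4 or treated larva 2, 3 or 5), and of 12 interferon response genes 1 rose (0 without treated larva 2). In the cholesterol synthesis list 3 of 23 genes fell, among them cyp51 (log2 fold change −0.95 ± 0.24), and 1 fell without treated larva 2 or 5. The circadian clock list had 1 of 29 genes higher (0 without untreated larva 1, 2, 3, 4 or 6 or treated larva 1, 2 or 5) and 2 lower (0 without untreated larva 4 or treated larva 1 or 5, 1 without untreated larva 2 or treated larva 2 or 3). The pigment cell list had 1 of 15 lower (xdh, −1.73 ± 0.41), the hatching gland list 1 of 10 higher, the cytosolic ribosomal proteins 3 of 77 lower (1 without treated larva 4) and the mitochondrial genome 1 of 13 lower (0 without untreated larva 2 or treated larva 5). These shares were read against 3.66% higher and 5.76% lower over all genes.

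Several genes in no list stood out. The lipid transfer gene NPC2 had 16.6, 45.4, 47.6, 26.6 and 25.7 CPM at 33 mM and 2.24 to 10.0 CPM (median 5.34) at 0 mM, a log2 fold change of 2.44 ± 0.58. The chaperone gene clu had 51.7, 95.0, 91.4, 68.9 and 280.5 CPM against 17.9 to 28.9 CPM (median 25.7), a log2 fold change of 2.29 ± 0.26, and larva 5 lay far above the other 4. Among the 304 changed genes with clone or project names, LO018128.1 rose most under the naming rule, with 266, 314, 279, 191 and 224 CPM against 4.33 to 34.7 CPM (median 14.3) and a log2 fold change of 4.23 ± 0.68 (adjusted p = 8.2e-07). The gene CR385050.3 had 0 counts at 33 mM and 163 at 0 mM, at least 24.7-fold lower by the floor of 3 counts.

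The lower doses changed fewer genes. At 6.6 mM 125 genes changed (0.725%), 100 higher (0.58%) and 25 lower (0.145%), and at 1.3 mM 14 genes changed (0.0812%), 11 higher (0.0638%) and 3 lower (0.0174%), all against the same 7 larvae at 0 mM. At 1.3 mM 2 to 5 genes changed without untreated larva 2, 3, 5 or 7. Mitosis genes were the largest group at 6.6 mM, with 11 of 70 higher and a summed level of 1182 to 1390.3 CPM (median 1228). The level of rrm2 had medians of 91.5, 109, 174 and 321 CPM at 0, 1.3, 6.6 and 33 mM, and it was past the test at 6.6 mM (log2 fold change 0.95 ± 0.14, adjusted p = 3.69e-06). At 6.6 mM ccng1 rose by 0.62 ± 0.12, rps27l by 0.97 ± 0.16 and cdk1 by 0.74 ± 0.17. In the exocrine pancreas, photoreceptor, lens, neuron and intestine lists 0 genes passed the test as lower at 6.6 mM. The median log2 fold changes of these lists at that dose were 0.01, 0.06, −0.22, −0.13 and −0.08. Of these lists 3 genes rose there, named after their values were seen: the amylase gene amy2a by 1.26 ± 0.32, the cone arrestin gene arr3a by 0.68 ± 0.17 and the recoverin gene rcvrn3 by 0.64 ± 0.17 on the log2 scale, while at 33 mM each fell (−4.11 ± 0.48, −0.60 ± 0.20 and −1.08 ± 0.20). Other members did not pass, among which prss1 had 744 to 1829 CPM (median 1062), opn1sw1 1384 to 2069.8 CPM (median 1789) and crybb1 36.2 to 970.0 CPM (median 705), with log2 fold changes of −0.10 ± 0.24, −0.25 ± 0.21 and −0.48 ± 0.37.

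A few genes changed at the lower doses in another way. LO018128.1 had medians of 239 and 295 CPM at 1.3 and 6.6 mM and was called at every dose. The glucocorticoid-induced chaperone gene fkbp5 had medians of 21.1, 80.2, 106 and 14.2 CPM with rising dose. It passed the test at 1.3 mM (log2 fold change 2.13 ± 0.34, adjusted p = 0.000142) and at 6.6 mM (log2 fold change 2.34 ± 0.34, adjusted p = 3.69e-06) but not at 33 mM (1.07 ± 0.38, adjusted p = 0.0558), where larvae 3 and 4 had 82.8 and 107 CPM and the other 3 larvae 5.81 to 14.2 CPM. The immediate early gene fosab had medians of 138, 54.6, 32.8 and 16.4 CPM and fell at 6.6 mM (−1.37 ± 0.32) and at 33 mM (−2.01 ± 0.38). Every dose was set against the same untreated PET larvae. For LO018128.1, fkbp5 and fosab an unusual level in those larvae and an effect of dose cannot be told apart. Untreated levels of fkbp5 and fosab were also unlike in PET and AB, as given below.

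**Figure D4:**
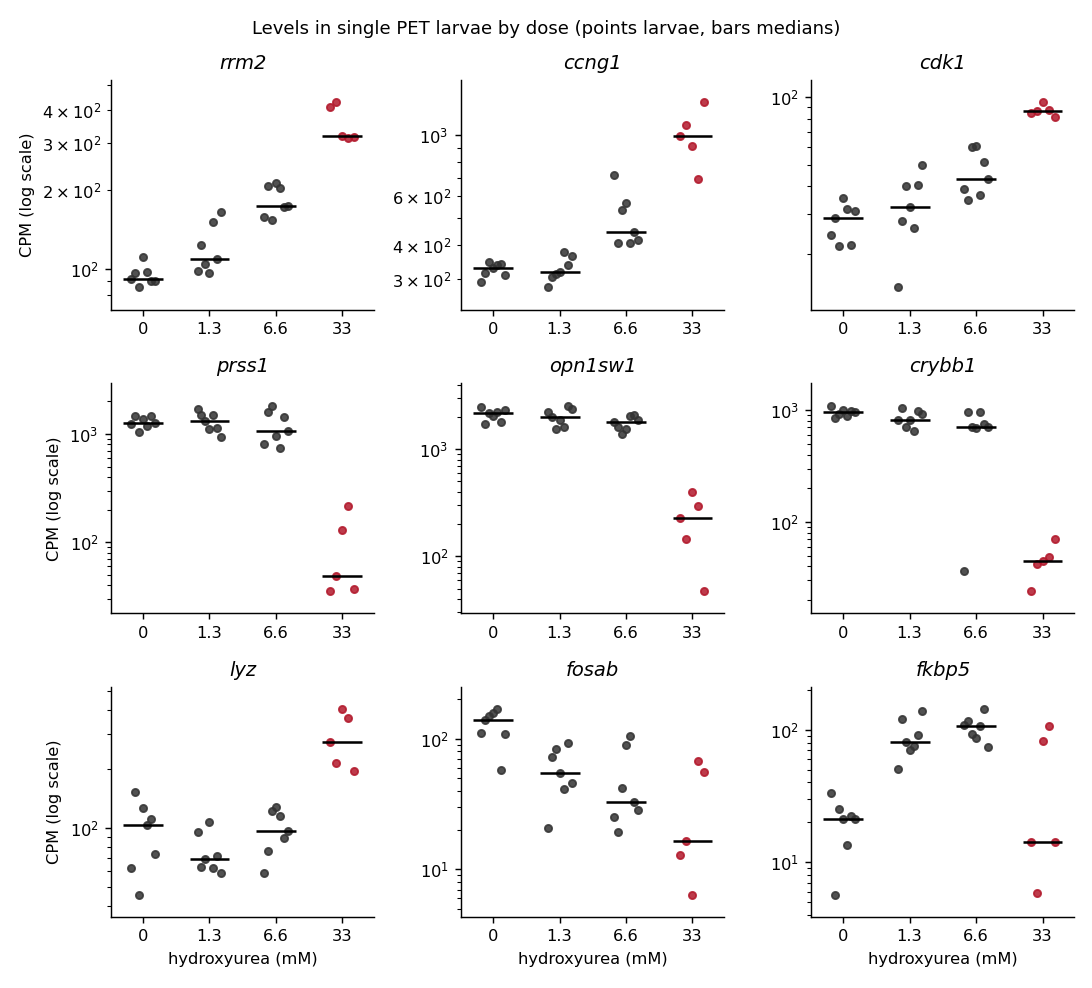
Points give the level of 9 genes in each PET larva (CPM, log axis) at 0, 1.3, 6.6 and 33 mM hydroxyurea, red at 33 mM, with bars at the medians. The median of rrm2 was 91.5 CPM at 0 mM and 321 CPM at 33 mM, while prss1, opn1sw1 and crybb1 were low at 33 mM, with 1 larva at 6.6 mM also low for crybb1, and the median of fkbp5 was highest at 6.6 mM.

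The effect of 33 mM in PET was compared with the mean effect in the 3 laboratory strains, which had 7 and 7 larvae (AB), 7 and 6 larvae (TU) and 7 and 4 larvae (RW) at 33 and 0 mM. The test of the difference was passed by 30 genes (0.174%), 12 with a higher effect in PET (0.0696%) and 18 with a lower one (0.104%), and 1286 genes had an unadjusted p under 0.05. At 33 mM 10 genes passed without larva 5, 17 without larva 1, 18 without larva 2 and 73 without larva 4, and 19 and 20 passed without untreated larvae 4 and 2. The number of genes changed within the other strains was 1248 in AB (7.24%), 1034 in TU (6.0%) and 1056 in RW (6.13%). Depth differed between strains. The median total at 33 and 0 mM was 801753 and 1327812 in AB, 1815342 and 4585926 in TU and 2566010 and 2698896 in RW, beside 1996908 and 3507564 in PET. Of the 104 larvae 25 had under 0.5 times the median total, 0 of them PET larvae at 33 or 0 mM, and without these 25 larvae 17 genes passed.

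The largest difference was in ms4a17a.8, of a family of membrane proteins, with 34.2, 19.5, 25.1, 0 and 41.8 CPM in PET at 33 mM and 0 to 2.12 CPM (median 0.728) at 0 mM. Larva 4 had none, and the log2 fold change was 4.71 ± 0.85 in PET, 0.90 in AB, −1.12 in TU and −0.59 in RW (difference 4.98 ± 0.98, adjusted p = 0.0048). The nuclear receptor gene nr0b2a had a difference of 2.34 ± 0.46 and the apolipoprotein D gene apoda.2 one of −1.98 ± 0.38. The change of nr0b2a within PET did not itself pass the main test. It passed under some alternatives, such as PET larvae alone (log2 fold change 1.11, adjusted p = 0.0188). That change is smaller than the difference of 2.34, part of which therefore lies in changes of nr0b2a in the other strains. The differences of these 3 genes passed under every alternative tried, but no larva of AB, TU or RW was left out singly. The log2 fold change of apoda.2 was −3.62 in PET, −1.09 in AB, −1.85 in TU and −1.95 in RW.

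The difference from the laboratory strains was −2.54 ± 0.52 for egr4 and −1.87 ± 0.44 for fosab, both immediate early genes, −1.88 ± 0.45 for jdp2b, whose protein pairs with those of the Fos and Jun family, and −1.39 ± 0.34 for the immediate early gene egr1, chosen after its values were seen. Their medians at 0 mM in PET were 24.9, 138, 30.4 and 71.1 CPM, above those of all 3 other strains (in AB 8.58, 19.6, 6.91 and 14.5 CPM). The part of these untreated levels in the differences was not tested. Of the 12 PET larvae, the removal of any 1 of 6 ended the call of the difference of fosab (untreated larva 2, 4 or 5 or treated larva 1, 2 or 3, adjusted p 0.0559 to 0.147). The same held for 9 larvae with jdp2b (untreated larva 1, 2, 3, 5 or 7 or treated larva 1, 2, 3 or 5, adjusted p 0.0506 to 0.159) and for 9 with egr1 (untreated larva 1, 3, 4, 5 or 7 or treated larva 1, 2, 3 or 5, adjusted p 0.0638 to 0.17). In the same way fkbp9 had a median of 4.25 CPM in untreated PET larvae and 31.8 CPM in AB, with a difference of 2.18 ± 0.44, and fkbp5 had 21.1 and 78.4 CPM with a difference of 2.1 ± 0.43. The difference of fkbp5 did not pass without treated larva 3 (adjusted p = 0.0693) or 4 (0.106).

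In the exocrine pancreas list 6 of 36 genes fell further in PET by this test, beside 0.104% of all genes with a lower effect in PET. The list holds near-identical copies whose reads may be shared, so that the 6 may not be separate results. The difference was −1.36 ± 0.32 for prss1, −1.58 ± 0.38 for prss59.2, −1.47 ± 0.35 for cela1.6 and −1.85 ± 0.45 for sycn.2. The log2 fold change of prss1 was −3.82 in PET, −2.04 in AB, −2.41 in TU and −2.93 in RW, so that the gene fell in each strain. None of the 4 differences passed without treated larva 1, 2 or 5 or untreated larva 2, 4 or 6, where the adjusted p of prss1 was 0.0559 to 0.215, and further untreated larvae ended the calls of prss59.2 (8 larvae in all), cela1.6 (7) and sycn.2 (9). A block for larva number also ended the calls of all 4 differences (adjusted p 0.0588 to 0.11). With the larvae of low total left out, which are of other groups, the 4 differences did not pass either (adjusted p 0.107 to 0.183). Fewer larvae of the laboratory strains remain in that setting. The cone gene gnb3b fell further as well, with a difference of −1.06 ± 0.22, which did not pass without larva 5 at 33 mM (adjusted p = 0.0955). Without that larva the difference of clu, 1.5 ± 0.30 with all larvae, did not pass either (adjusted p = 0.377), nor did that of egr4 (adjusted p = 0.0736). For the intelectin gene ITLN1 the difference was 2.88 ± 0.68, which did not pass without treated larva 1 or 2 or untreated larva 2, 4, 5, 6 or 7 (adjusted p 0.066 to 0.11). Its own rise in PET (1.84 ± 0.56, adjusted p = 0.0183) did not pass without treated larva 1 (adjusted p = 0.059), treated larva 2 (0.0529) or untreated larva 5 (0.0528).

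**Figure D5:**
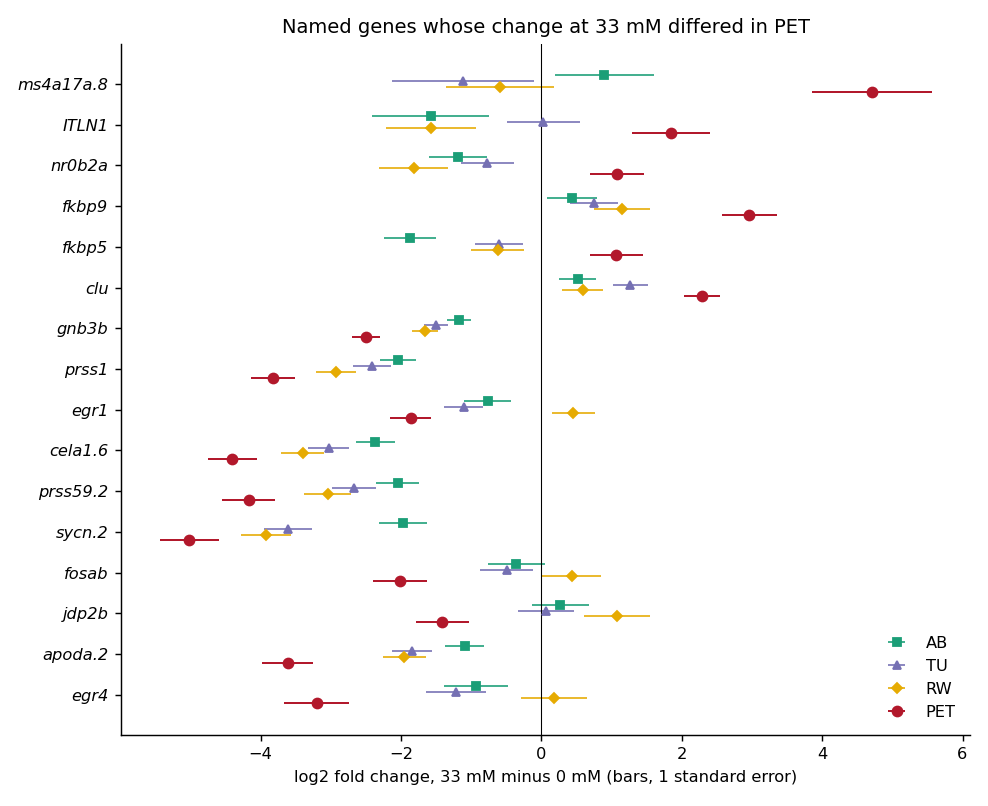
Points give the log2 fold change of 33 mM minus 0 mM in PET (red circles), AB, TU and RW with bars of 1 standard error for the 16 named genes that passed the test of a difference between PET and the laboratory strains. The red circles lie above the other 3 strains for genes such as ms4a17a.8 (4.71) and below them for genes such as apoda.2 (−3.62).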

How the data were processed

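Single whole larvae were sequenced by the study, and estimated counts per gene for 340 larvae were deposited by the authors as 1 table of 31658 genes. The submitters' processing notes name the genome build GRCz11 and Seurat 5.1.0, and the aligner and counter are not given in the sources used here. No value of the 12 PET larvae compared was other than a whole number, and 52 values of the table were rounded. The test had been planned for counts and was applied to these rounded estimated counts. Total counts of the 12 larvae ran from 1302754 to 4474913, and intervals and floors of 3 counts cover counting error only.

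Genes were kept by filterByExpr (minimum count 10, minimum total count 15), scaled by TMM and tested with the quasi-likelihood test of edgeR 4.0.16 (R 4.3.3, limma 3.58.1), with 1 mean per strain and dose over the 104 larvae of the experiment with hydroxyurea, no block and Benjamini-Hochberg adjustment over 17236 genes at 0.05. The standard error is the absolute log2 fold change divided by the square root of F. The effect in PET was also set against the mean effect in AB, TU and RW. Larva totals and gene numbers were compared by an exact two-sided permutation test. The procedure was also run on simulated counts. These were drawn for independent larvae with no effect of clutch, so that they cannot speak to the single biological replicate.

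Named genes are those with the 10 largest changes in each direction among changed genes whose groups do not overlap and whose counts average 10 or more, the 3 lowest p in each direction, the 2 most changed and the 2 most abundant genes of each list, the 5 largest differences from the other strains in each direction, the ribonucleotide reductase subunits, and the most changed genes with clone names. Certain items, and 1 gene list that holds one, are not reported here. Most genes whose call was lost on leaving out 1 larva are not printed. Gene lists and members were chosen with earlier results of these data known. Alternatives were the size factors of DESeq2 1.42.0, DESeq2's own test on the 12 larvae, other filters, a block for larva number and a depth covariate. Further ones were fewer larvae, thinned counts, a minimum log2 fold change of 1 and each of the 12 PET larvae at 33 and 0 mM left out. No other larva was left out singly.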

Additional observations from a re-analysis of the deposited data

Results flagged for a closer look

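Of 260 groups of values tested for a larva far from the others (99 genes and 31 gene lists at 2 doses), 25 held one. A larva was flagged when its gap to the next larva took a large share of the CPM range. The chance rate of 1 in 20 groups assumes independent, normally distributed values. These values are of genes mostly chosen for their change or level and measured in the same larvae. The 25 flags can therefore not be set against chance. For hbbe3 at 0 mM and rag1 at 33 mM only 1 larva held a count, so that it was flagged whatever its level. At 0 mM 15 flags were found, and 10 of these were in larva 2. Larva 2 was the lowest at 0 mM for rrm1 (10.9 CPM) and the highest for tdo2a (69.3 CPM), her15.2 (19.9 CPM), acta1b (2564 CPM), cyp51 (67.9 CPM), cyp2ad2 (54.1 CPM), nr0b2a (14.2 CPM), fkbp9 (26.1 CPM) and LO018128.1 (34.7 CPM), and for the summed level of cholesterol synthesis genes (639 CPM). Without it 1535 genes changed at 33 mM. The other larvae at 0 mM that stood apart were larva 1 for slc32a1 (52.7 CPM) and the summed level of lymphoid genes (135 CPM), larva 5 for hbbe3 (0.578 CPM, where the other 6 had 0) and c3a.1 (152 CPM), and larva 7 for tnnt2c (18.9 CPM).

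At 33 mM 10 flags were found. Larva 5 stood apart for clu (280 CPM, the others up to 95.0 CPM), mmp9 (31.1 CPM), cpe (95.2 CPM, the lowest) and the summed level of neuron genes (947 CPM, the lowest). Larva 4 was the highest for ela2 (66.8 CPM), krt93 (4.31 CPM) and the growth hormone gene gh1 (12.2 CPM), larva 2 for rps27l (555 CPM) and mep1a.1 (5.81 CPM), and larva 1 for rag1 (0.314 CPM, 1 count).

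The effect of 33 mM differed between PET and the mean of AB, TU and RW, by the test of that difference, for 16 named genes. The difference on the log2 scale was positive for ms4a17a.8 (4.98), ITLN1 (2.88), nr0b2a (2.34), fkbp9 (2.18), fkbp5 (2.1) and clu (1.5). It was negative for gnb3b (−1.06), prss1 (−1.36), egr1 (−1.39), cela1.6 (−1.47), prss59.2 (−1.58), sycn.2 (−1.85), fosab (−1.87), jdp2b (−1.88), apoda.2 (−1.98) and egr4 (−2.54). For 13 of the 16 the difference failed the test under at least 1 alternative. With larvae under 0.5 times the median total left out 11 failed, all but those of ms4a17a.8, nr0b2a, egr4, egr1 and apoda.2. That setting leaves fewer larvae of the laboratory strains, among which AB had the lowest totals (median 801753 at 33 mM). Fewer larvae and an unstable difference cannot be told apart there. Strain and clutch cannot be told apart.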

How the results depend on the processing

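No gene called at 33 mM changed its sign in an alternative. The number of changed genes was 1432 to 2237 under the other settings and 1037 with a minimum log2 fold change of 1 (392 higher, 645 lower). The number higher was 995 with larvae under 0.5 times the median total left out and 966 with PET larvae alone. At 6.6 mM 79 genes had a log2 change of at least 1, and at 1.3 mM 4 genes changed with PET larvae alone. Genes that differed from the other strains numbered 17 without the larvae of low total, 55 with no filter and 16 with the replicate block. Leaving out 1 of the 12 PET larvae at 33 and 0 mM gave 1191 to 1646 genes changed, 450 to 697 higher and 668 to 949 lower. It gave 97 to 130 at 6.6 mM and 2 (without untreated larva 5) to 18 (without untreated larva 1) at 1.3 mM. It also gave 10 to 73 genes different from the other strains. It gave a difference in log10 total of −0.248 to −0.154 and in the number of genes after thinning of −353 to 155, the latter positive only without treated larva 2 (155, exact permutation p = 0.582).

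Larva numbers did not pair the larvae, since same-numbered larvae correlated by −0.0225 to 0.00941 in their deviations and none best with its own number, and the block gave 1554 changed genes. Of 99 named genes 95 passed the test, and of 2161 values under alternatives 4 lost the threshold (mmp9 and ITLN1) and 16 gained it (nr0b2a and fkbp5). Most genes whose call was lost on leaving out a larva are not among those named. The few losses therefore cannot show how stable the calls are. Of the 1623 genes called at 33 mM, 1124 were also called without treated larva 5. This was the lowest number on leaving out any larva, and the highest was 1448, without untreated larva 2. Lower totals at 33 mM limit what can be seen in genes of few counts.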

Other observations

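Gene families formed by symbol were described after their values were seen, with no test of the family. Some of their members are also in the lists. Their counts stand beside 3.66% higher and 5.76% lower over all genes. Of 50 tested proteasome subunit genes 9 rose and 0 fell, with a median log2 fold change of 0.31. Of 14 centromere genes with cenp symbols 9 rose and 0 fell, with a median of 1.29. Of those that rose, cenpe, cenpf and cenpn are already counted in the mitosis list, so that this is not a separate result. Of 6 myelin genes 5 fell, with a median of −1.57. The myelin gene mbpa had levels of 42.2 to 58.5 CPM at 0 mM and 9.59 to 23.5 CPM at 33 mM (log2 fold change −1.64 ± 0.22), and plp1b had a log2 fold change of −2.38 ± 0.42. Of 34 protocadherin genes 9 fell and 0 rose, with a median of −0.56. Most of the 9 have pcdh1g symbols, and reads may be shared between them, so that they may not be separate results. Of 92 genes of the respiratory chain and ATP synthase 10 fell and 0 rose, with a median of −0.14. Of 36 hox genes 0 passed the test in either direction, with a median of −0.07.

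The complement genes c6 and c4b had log2 fold changes of 2.32 ± 0.37 and 2.48 ± 0.41. Larva 5 had the highest level of both, 72.1 and 93.2 CPM, beside untreated ranges of 2.69 to 10.1 CPM for c6 and 2.52 to 13.9 CPM for c4b. The phosphate transporter gene slc34a2a had a log2 fold change of −4.31 ± 0.61, and every treated larva was below every untreated one. The growth hormone gene gh1, chosen after its values were seen, had a log2 fold change of −2.48 ± 0.48, with 1 treated larva inside the untreated range.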
